A study of Mus musculus with 12 samples.

Results

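The response of bone marrow-derived macrophages (BMDM) labelled Camkk2-/- (KO) to a stiff against a soft hydrogel was examined in 4 of the 12 libraries of the series, 2 labelled KO stiff and 2 labelled KO soft. A gene was tested when it had at least 1 TPM (a transcript abundance in which reads are divided by gene length and scaled to the same total in every library) in at least 2 of these 4 libraries, which held for 10743 of the 14098 genes in the table. Bone marrow came from male and female C57Bl/6 mice of 8 to 10 weeks, was differentiated in medium with 30% L929 conditioned medium in ultra-low attachment plates, and the cells were embedded in a gel of collagen and hyaluronic acid. The soft group stayed in the soft gel. For the stiff group, the gel was crosslinked with UV light and a photoinitiator (Irgacure) at 24 h after encapsulation, and the cells were cultured for another 48 h before they were freed with collagenase IV (400 U/mL). The stiff gel also held more collagen than the soft gel, so stiffness, collagen content and the crosslinking step cannot be told apart. The WT groups (labelled Camkk2+/+) were embedded and stiffened in the same way, and the soft+IL-4 groups received the cytokine IL-4 in the soft gel. The labels do not say whether the 2 libraries of a group came from separate mice, so the p-values measure the spread between these libraries only.

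Macrophages change their gene expression with the signals around them. IL-4 binds its receptor, activates the transcription factor STAT6 and induces a set of genes that includes the lectins Mrc1 and Mgl2, the secreted proteins Retnla and Chil3, and the enzymes Arg1 and Il4i1, a state often called alternatively activated, M2 or pro-regenerative. Interferons induce antiviral genes such as Ifit3 and Irf7. Camkk2 is a kinase that is activated by calcium and calmodulin and phosphorylates CaMKI, CaMKIV and AMPK. The question of the comparison was whether cells without Camkk2 still respond to a stiffer matrix.

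The labels of some libraries do not match their level of the deleted gene. Camkk2 was at 46.6 TPM in the library labelled KO soft 1 and at 11.5 TPM in KO soft 2. It was at 37.7 TPM in KO stiff 1 and at 10.0 TPM in KO stiff 2. Both libraries numbered 1 were therefore above the WT stiff libraries (23.3 and 23.7 TPM), while the pair of WT soft libraries held 44.2 and 11.7 TPM. With IL-4, the WT pair held 30.5 and 29.8 TPM, and the KO pair 11.5 and 8.54 TPM. The part of the transcript that was deleted is not given in the labels, so a low level cannot be set against a null allele. Apoe, a lipid carrier, followed the number rather than the gel, with 8891 and 1234 TPM for soft and 7767 and 1092 TPM for stiff in the KO. Ifi202b, an interferon-inducible gene named after its values were seen, was at 0 and 78.4 TPM for KO soft and 1.34 and 79.4 TPM for KO stiff. Its WT levels were 0.321 and 67.7 TPM (soft) and 34.9 and 28.9 TPM (stiff). For these genes, KO soft 1 and KO stiff 1 lay near WT soft 1, and KO soft 2 and KO stiff 2 near WT soft 2. All libraries were kept in their labelled groups, and the values of the libraries numbered 1 and 2 are given separately throughout.

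**Figure D1:**
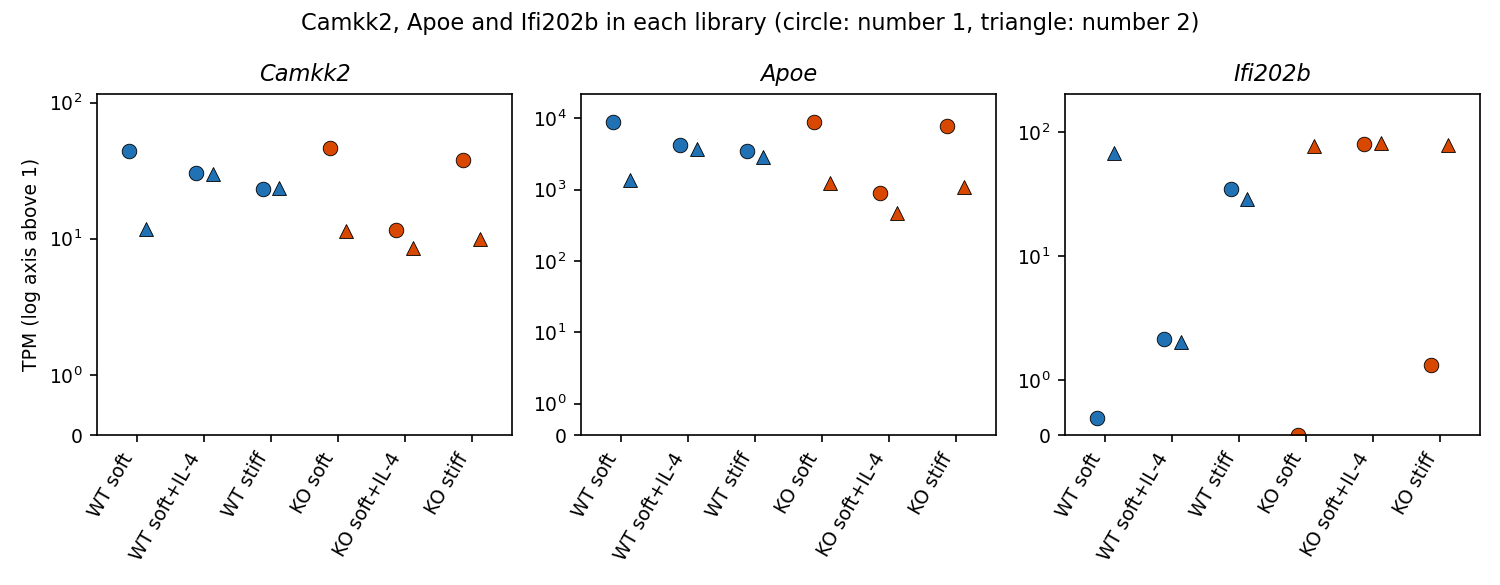
TPM of Camkk2, Apoe and Ifi202b (y axis, linear below 1 and logarithmic above) in the 12 libraries by labelled group, with circles for libraries numbered 1, triangles for those numbered 2, WT in blue and KO in orange. In KO soft and KO stiff, the library numbered 1 has high Camkk2 and Apoe and little Ifi202b, and the library numbered 2 the reverse.

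The libraries were also compared over all genes. The Pearson correlation across genes on the log2(TPM + 1) scale was 0.984 between the KO soft libraries and 0.986 between the KO stiff libraries. KO soft 2 was closest to WT soft 2 (0.996) and KO stiff 2 closest to KO soft 2 (0.993). WT stiff 1 stood apart from all others, with a correlation of 0.950 to WT stiff 2, and WT stiff 2 was closest to WT soft+IL-4 2 (0.996). In the KO libraries numbered 1, 13.4% (soft) and 11.5% (stiff) of the genes were listed at 0, against 5.90% and 7.28% in those numbered 2. In each of the 6 groups the library numbered 1 had the larger share of genes at 0. TPM keeps no read counts, so the depth of a library and the counting error of a value are unknown. Macrophage genes were high in all 4 libraries: Lyz2 (lysozyme) was at 46400.4 and 51543 TPM in soft and 40543 and 42671 TPM in stiff, and Csf1r, the receptor of the macrophage growth factor, at 1712 and 1986 TPM (soft) and 1649 and 1809 TPM (stiff). Of markers of other cells, 6 of 7 mast cell and basophil genes and 8 of 10 B, T and NK cell genes in the table stayed under 1 TPM in all 4 libraries. The summed TPM of the 12 neutrophil genes was 139 to 159 in soft and 128 to 167 in stiff, which overlapped, and so did that of the 4 erythroid and megakaryocyte genes (48.2 to 77.4 in soft and 41.1 to 93.2 in stiff). The sum of the 12 dendritic cell genes was 854 to 962 in soft and 1012 to 1036 in stiff, and that of the 11 fibroblast and endothelial genes, of which 8 stayed under 1 TPM, was 20.8 to 25.0 in soft and 26.1 to 32.8 in stiff. Both of these sums were higher in stiff, with 0 DE genes among them, and their part in the results was not tested. The dendritic cell sum includes Itgax and Ccl22, given below with higher values in stiff (log2 fold changes 0.93 and 1.58). Of the 7 members tested, 5 were above 0 and 2 below, among these Cd209a (-0.73). In bulk RNA, fewer cells of a state and less RNA per cell cannot be told apart.

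In the KO libraries, 5 genes were differentially expressed (DE: limma p under 0.05 after Benjamini-Hochberg adjustment, with a log2 fold change of 1 or more in size), all of them higher in the stiff matrix, and 0 were lower. This is 0.0465% of the 10743 genes tested. At an unadjusted p under 0.05, 179 genes (1.67%) were higher and 107 (0.996%) lower. The 5 genes were Il4i1, Tfrc, Tmem26, Irf4 and Hebp2. Il4i1, Tmem26 and Irf4 are in the IL-4 and STAT6 list used below, and Tfrc and Hebp2 are not. Tfrc and Hebp2 were also higher with IL-4, at mean levels of 149 and 9.84 TPM in KO soft+IL-4 against 20.5 and 0.368 TPM in KO soft.

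Il4i1, a secreted oxidase of aromatic amino acids, was at 19.8 and 17.1 TPM in the soft matrix and at 85.9 and 99.7 TPM in the stiff matrix. The group means were 18.4 ± 1.92 and 92.8 ± 9.74 TPM (SD, n = 2), a 5.04-fold rise. Its log2 fold change was 2.27 ± 0.13 (SE) with an adjusted p of 0.000273 in limma, and both stiff libraries lay above both soft libraries. It had the smallest p of all genes. Tfrc, the transferrin receptor that takes up iron, went from 18.8 and 22.3 TPM to 46.7 and 51.7 TPM. It rose 2.40-fold, with a log2 fold change of 1.22 ± 0.12 and an adjusted p of 0.00922. The transmembrane protein gene Tmem26 went from 3.57 and 2.56 TPM to 14.2 and 13.5 TPM, a log2 fold change of 1.88 ± 0.19 with an adjusted p of 0.0101. Irf4, a transcription factor of the IL-4 program, went from 4.23 and 4.00 TPM to 10.2 and 10.5 TPM, with a log2 fold change of 1.15 ± 0.13 and an adjusted p of 0.0152. In all of these the groups did not overlap, and the 2 libraries of a group lay close together. Groups did not overlap in 32.3% of all genes tested, with stiff higher in 13.2% and lower in 19.1%. Hebp2, a heme-binding protein gene, was low, with 0.307 and 0.428 TPM in soft and 2.94 and 2.42 TPM in stiff, a log2 fold change of 1.43 ± 0.18 and an adjusted p of 0.0391. It was under 1 TPM in both soft libraries and so entered the test only through the stiff libraries, and with no filter on low values it did not pass. On the log2(TPM + 1) scale the fold of such a low gene is understated. In the GENCODE annotation of GRCm38, the 5 protein-coding genes lie at chr7:44816387-44840809 (Il4i1, plus strand), chr16:32608920-32632794 (Tfrc, plus), chr10:68723646-68782650 (Tmem26, plus), chr13:30749226-30766976 (Irf4, plus) and chr10:18539498-18546076 (Hebp2, minus).

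The number of DE genes rested on single libraries. Without KO soft 1 or without KO stiff 1, 1 gene passed, Il4i1. Without KO soft 2, Il4i1 and Tfrc passed. Without KO stiff 2, Il4i1 and 1 lower gene, Amd2, passed; Amd2, named after its values were seen, was listed at 0 in KO stiff 1 and at 34.9 TPM in KO stiff 2. With WT stiff 1 left out of the model, which was chosen after seeing the data, 26 genes passed and all were higher in stiff. Il4i1 passed in each of these fits, with a log2 fold change between 2.17 and 2.38 when 1 of the 4 libraries was left out. With the KO reduced to the libraries numbered 2, those of low Camkk2, 1 gene passed (Il4i1). With the KO reduced to those numbered 1, 0 genes passed as higher and Amd2 passed as lower.

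Upstream sequences of genes that led the response are shown here because most of these genes belong to the IL-4 response, whose factor STAT6 binds the motif TTCNNNNGAA, while other STAT factors prefer TTCNNNGAA. Both motifs read the same on both strands. The 250 bases before the gene start were taken from RefSeq (GRCm38.p6), and matches are in capitals, the rest in lower case. Of all 32851 such promoters, 5.85% held TTCNNNNGAA and 7.02% held TTCNNNGAA. Of the 5 DE genes, Tmem26 (2 matches) and Hebp2 (1 match) held TTCNNNNGAA in this window, and Il4i1, Tfrc and Irf4 held neither in theirs. For Il4i1 the RefSeq window was chr7:44836038-44836287, inside the GENCODE span given above, so the bases before the GENCODE start were not searched. Tfrc had 2 RefSeq windows, chr16:32608646-32608895 and chr16:32608872-32609121, and the second ran past its GENCODE start. Retnla, Ccl17 and Pdcd1lg2, which follow in the next results, held 1 match of TTCNNNNGAA each, and Ccl17 also 1 of TTCNNNGAA. Socs1, Mgl2 and Cish, searched in the same way, held neither, and Chil3 held 1 match of TTCNNNGAA alone, so the windows printed are those with a TTCNNNNGAA match and not a sample of the response. The windows are chr10:68723496-68723745, plus strand for Tmem26; chr10:18546077-18546326, minus strand for Hebp2; chr16:48842359-48842608, plus strand for Retnla; chr8:94810203-94810452, plus strand for Ccl17; and chr19:29410669-29410918, plus strand for Pdcd1lg2.
Tmem26: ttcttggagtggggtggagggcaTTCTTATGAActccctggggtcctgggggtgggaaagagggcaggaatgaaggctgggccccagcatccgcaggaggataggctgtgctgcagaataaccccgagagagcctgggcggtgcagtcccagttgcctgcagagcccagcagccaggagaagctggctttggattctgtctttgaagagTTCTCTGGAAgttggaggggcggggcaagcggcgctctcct
Hebp2: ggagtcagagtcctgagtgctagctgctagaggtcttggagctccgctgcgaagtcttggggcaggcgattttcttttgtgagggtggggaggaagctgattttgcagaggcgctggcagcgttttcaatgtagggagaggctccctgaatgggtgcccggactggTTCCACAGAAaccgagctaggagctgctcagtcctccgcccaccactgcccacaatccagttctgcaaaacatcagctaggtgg
Retnla: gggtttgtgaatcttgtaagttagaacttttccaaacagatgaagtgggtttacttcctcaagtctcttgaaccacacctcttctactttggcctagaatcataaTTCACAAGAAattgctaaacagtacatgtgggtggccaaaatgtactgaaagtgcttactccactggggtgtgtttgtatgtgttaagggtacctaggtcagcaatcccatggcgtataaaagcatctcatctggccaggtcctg
Ccl17: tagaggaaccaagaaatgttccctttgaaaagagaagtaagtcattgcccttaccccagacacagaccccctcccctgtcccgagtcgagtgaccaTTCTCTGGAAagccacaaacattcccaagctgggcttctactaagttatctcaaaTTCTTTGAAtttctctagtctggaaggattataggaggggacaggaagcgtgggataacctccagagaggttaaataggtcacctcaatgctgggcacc
Pdcd1lg2: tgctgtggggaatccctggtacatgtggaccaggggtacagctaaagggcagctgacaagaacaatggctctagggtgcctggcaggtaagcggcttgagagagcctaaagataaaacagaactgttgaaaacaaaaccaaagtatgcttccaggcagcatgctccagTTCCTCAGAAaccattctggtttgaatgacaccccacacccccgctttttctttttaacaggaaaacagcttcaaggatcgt
The matches began 227 and 41 bases before the start of Tmem26, 84 bases before that of Hebp2, 145 before Retnla, 154 (TTCNNNNGAA) and 99 (TTCNNNGAA) before Ccl17 and 82 before Pdcd1lg2. A match describes these letters only and does not show that a factor binds there.

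A second tier of genes had large differences but did not pass the adjusted threshold in this model. Some of them passed with a block for the replicate number, which is given below with the processing alternatives. The 5 genes with the next smallest p shared an adjusted p of 0.0548. Socs1, a feedback inhibitor of cytokine signaling, was at 7.76 and 4.87 TPM in soft and 37.3 and 30.5 TPM in stiff, a log2 fold change of 2.27 ± 0.32. Mgl2, a galactose-binding lectin of alternatively activated macrophages, was at 19.2 and 13.4 TPM (soft) and 94.1 and 94.8 TPM (stiff), a log2 fold change of 2.48 ± 0.35. In both genes the stiff libraries lay well above the soft ones. Pdcd1lg2, the checkpoint ligand PD-L2, was at 2.51 and 1.72 TPM (soft) and 9.83 and 8.98 TPM (stiff), the VEGF receptor gene Flt1 at 3.16 and 1.86 TPM (soft) and 7.88 and 9.17 TPM (stiff), and the cyclooxygenase gene Ptgs1 at 3.46 and 4.42 TPM (soft) and 11.1 and 10.0 TPM (stiff). Their log2 fold changes were 1.75 ± 0.25, 1.46 ± 0.20 and 1.23 ± 0.17. In all 3 the groups did not overlap, which was so for 32.3% of all genes tested. Tarm1, a receptor of the leukocyte receptor family, came next with 3.41 and 3.26 TPM (soft) and 13.5 and 12.1 TPM (stiff), with a log2 fold change of 1.67 ± 0.27 and an adjusted p of 0.133.

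The secreted products of the IL-4 response showed large folds together with a large SE. The SE uses a spread shared by all groups, and the WT stiff libraries lay far apart in these genes. In WT stiff, Retnla was at 21525 and 7919 TPM and Chil3 at 7681 and 1669 TPM. Ear2 was at 1202 and 210 TPM there, and Rnase2a at 2926 and 619 TPM. Retnla, a resistin-like protein secreted by alternatively activated macrophages, was at 434 and 242 TPM in soft and 2016 and 2092 TPM in stiff. This is 6.07-fold, with a log2 fold change of 2.66 ± 0.45 and an adjusted p of 0.157. The chitinase-like protein gene Chil3, whose reads may be shared with the similar gene Chil4, was at 107 and 37.1 TPM (soft) and 539.7 and 322 TPM (stiff), with a log2 fold change of 2.70 ± 0.75 and an adjusted p of 1. In both genes the soft libraries differed from each other, with number 1 above number 2. The ribonuclease genes Ear2 and Rnase2a, which have close copies in the mouse genome so that their reads may be shared, were at 8.81 and 4.29 TPM (soft) against 89.8 and 42.5 TPM (stiff) and at 32.4 and 18.0 TPM (soft) against 157 and 133 TPM (stiff). Arg1, the arginase that competes for arginine with nitric oxide synthase, was at 1.53 and 1.11 TPM in soft and 35.3 and 9.84 TPM in stiff. Its SE was large (3.10 ± 1.94, adjusted p 1), and the shared estimate of the spread includes WT stiff, where Arg1 was at 8850.2 and 42.6 TPM. Fn1, fibronectin, was at 12.6 and 10.1 TPM (soft) and 28.3 and 21.9 TPM (stiff).

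The chemokine genes Ccl17, Ccl22 and Ccl24 had higher values in stiff in both numbers, unlike Cxcl10, which is given with the interferon-stimulated genes. Ccl17, whose product attracts T cells, was at 2.04 and 0.219 TPM in soft and 13.8 and 6.53 TPM in stiff, and Ccl22, which shares its receptor, at 11.7 and 8.20 TPM (soft) and 30.5 and 32.1 TPM (stiff). Ccl24 was at 6.50 and 10.0 TPM (soft) and 33.2 and 48.9 TPM (stiff). None of the 3 passed, with adjusted p of 0.283, 0.170 and 0.981. The STAT-induced inhibitor Cish was at 3.02 and 1.15 TPM (soft) and 11.3 and 10.4 TPM (stiff), with a log2 fold change of 2.01 ± 0.36 and an adjusted p of 0.179, and Ocstamp, a gene of macrophage fusion, at 5.93 and 4.24 TPM (soft) and 32.9 and 27.2 TPM (stiff), with a log2 fold change of 2.36 ± 0.77. In each of these genes the lowest stiff library was above the highest soft library, as in 13.2% of all genes tested. The shared spread also includes WT stiff, where Ccl24 was at 27.1 and 135 TPM and Ocstamp at 8.91 and 93.6 TPM.

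Other IL-4 genes had smaller differences. Mrc1, the mannose receptor CD206, was at 54.3 and 88.9 TPM in soft and 94.2 and 114 TPM in stiff, a 1.45-fold difference of the means with a log2 fold change of 0.57 ± 0.36. Its soft libraries differed from each other by more than its stiff libraries did. The integrin subunit gene Itgb3 was at 1.14 and 1.38 TPM (soft) and 3.74 and 3.24 TPM (stiff), with a log2 fold change of 0.99 ± 0.16 and an adjusted p of 0.156. The lectin gene Lgals3, high in every library, was at 7751 and 6669 TPM (soft) and 8763 and 7852 TPM (stiff). The metabolic regulators Pparg and Ppargc1b had log2 fold changes of 0.39 and 0.61, and the transcription factors Egr2, Klf4 and Myc of 0.52, 0.28 and 0.20. Stat6 itself was at 114 and 113 TPM in soft and 109.6 and 108 TPM in stiff, and the receptor gene Il4ra at 31.7 and 39.8 TPM (soft) and 28.0 and 35.6 TPM (stiff). The 95% intervals of their log2 fold changes were -0.27 to 0.15 and -0.61 to 0.28.

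Of the 43 genes of the IL-4 and STAT6 list in the table, 40 were tested and 3 were DE, all higher (Il4i1, Tmem26 and Irf4). A further 18 had an unadjusted p under 0.05 and were higher, which makes 21 of 40 against 1.67% of all genes tested, and 0 were lower at that level. The log2 fold change was above 0 in 36 of 40 members, against 45.0% of all genes. The 4 members below 0 were Cd209a, Tgm2, Emilin2 and F13a1. The median was 0.80 for the list and -0.016 for all genes. Within number 1 the median was 0.78 and within number 2 0.69. The list was chosen with earlier results of these data known, so its direction is not independent evidence.

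**Figure D2:**
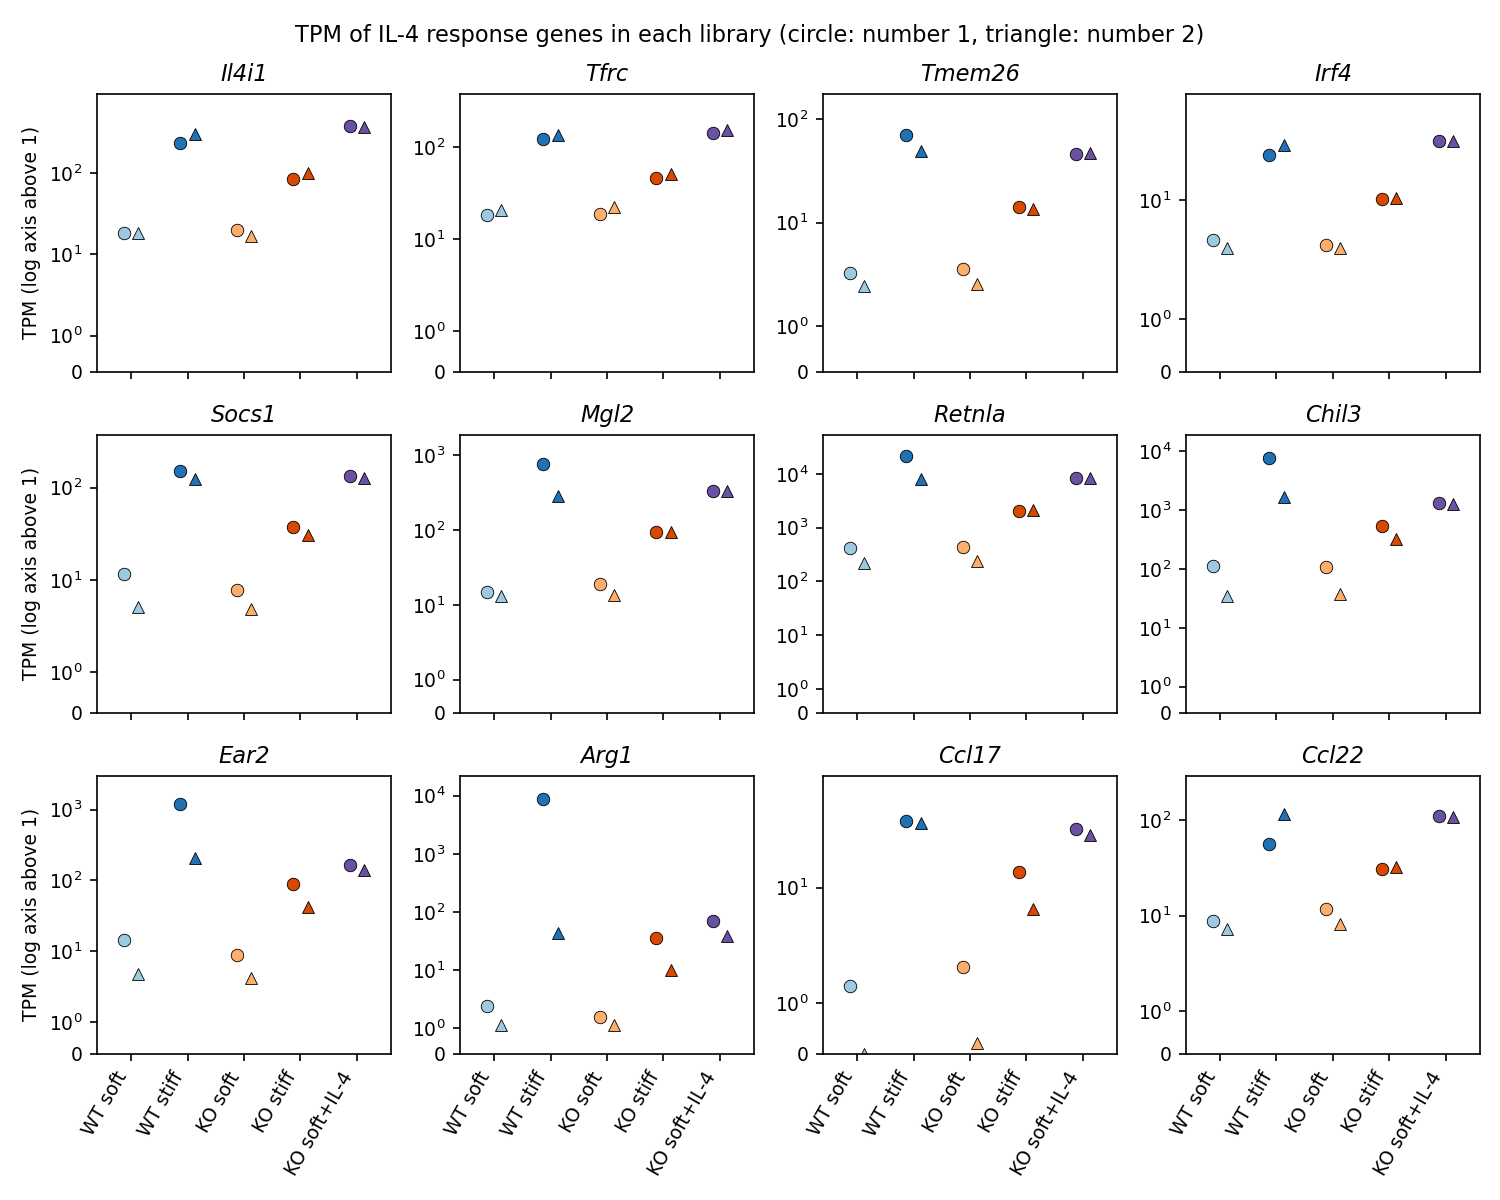
TPM (y axis, linear below 1 and logarithmic above) of 12 genes in the libraries of WT soft, WT stiff, KO soft, KO stiff and KO soft+IL-4, with circles for libraries numbered 1 and triangles for those numbered 2. In each of the 12 genes the KO stiff libraries lie above both KO soft libraries and below both KO soft+IL-4 libraries.

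Levels in the soft+IL-4 group place these values on a scale, although that group is compared with the same KO soft libraries. With IL-4, Il4i1 reached 382 and 374 TPM, against 85.9 and 99.7 TPM in KO stiff. Retnla was at 8488 and 8355 TPM and Mgl2 at 337 and 334 TPM with IL-4. Tfrc and Irf4 were at 143 and 154 TPM and at 31.8 and 31.7 TPM. For each of these 5 genes both KO stiff libraries lay between the soft libraries and the IL-4 libraries of the KO. These genes were among those chosen for higher values in KO stiff, so only their place below IL-4 was not set by that choice.

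In limma, 0 genes passed as lower in the stiff matrix, and 107 had an unadjusted p under 0.05. Among genes with a mean of at least 5 TPM, groups that did not overlap and a log2 value of -1 or lower, Ndufaf6, Tmem42 and 1 unnamed gene model had lower values in stiff. Ndufaf6, an assembly factor of respiratory complex I, was at 8.26 and 5.90 TPM in soft and 1.79 and 4.38 TPM in stiff (log2 fold change -1.04 ± 0.28). Tmem42 was at 19.1 and 10.3 TPM (soft) and 8.13 and 4.48 TPM (stiff), with a log2 fold change of -1.09 ± 0.72, and in WT soft it was at 6.84 and 17.4 TPM. Other genes with lower values in both numbers had smaller differences. Psme2b was at 22.2 and 19.3 TPM in soft and 14.4 and 13.9 TPM in stiff, and Ctla2b at 25.7 and 42.9 TPM (soft) and 17.0 and 26.8 TPM (stiff).

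Interferon-stimulated genes had values slightly below 0. Of the table's 63, 62 were tested, and 0 of these were DE in limma or had an unadjusted p under 0.05. Over all genes tested, 0.0465% were DE and 2.66% had such an unadjusted p, so a count of 0 in 62 is near these shares. Of the 62, 56 had a log2 fold change below 0, against 5906 of all 10743 genes tested. The median of the list was -0.14, with -0.13 within number 1 and -0.17 within number 2. Irf7, a transcription factor that amplifies interferon signaling, was at 182 and 203 TPM in soft and 144 and 163 TPM in stiff, so the stiff libraries lay below the soft ones. Ifit3, an antiviral protein gene, was at 113 and 71.3 TPM (soft) and 80.4 and 57.5 TPM (stiff), where the groups overlapped. The chemokine gene Cxcl10 was at 19.5 and 20.3 TPM (soft) and 16.2 and 20.5 TPM (stiff). The largest value of the list was Ccl12, at 0 and 2.22 TPM in soft and 1.61 and 6.66 TPM in stiff, a low gene that is also a chemokine. At the precision of this comparison, a 95% interval reached to 0.38 on either side of the log2 fold change (median over all genes), so differences of the size of the list's median were not detectable gene by gene.

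Toll-like and RIG-I-like receptor genes also had values slightly below 0, with 30 of 34 members below 0, a median of -0.13 and 0 DE genes. Tlr7, the receptor of single-stranded RNA, was at 75.3 and 104 TPM in soft and 71.6 and 87.8 TPM in stiff, where the groups overlapped. Traf3, a signaling adaptor, was at 10.5 and 10.5 TPM (soft) and 7.67 and 8.26 TPM (stiff), a log2 fold change of -0.36 ± 0.12 with an unadjusted p of 0.0128 that did not pass after adjustment. Among macrophage identity genes, 13 of 16 were below 0. Over all genes tested, 5906 of 10743 were below 0. Fcgr1, the high-affinity IgG receptor CD64, was at 149.7 and 122 TPM in soft and 113 and 92.1 TPM in stiff (log2 fold change -0.41 ± 0.15), and the LPS co-receptor gene Cd14 at 726 and 808 TPM (soft) and 599.7 and 630.3 TPM (stiff). In both the stiff libraries were below the soft libraries, as in 19.1% of all genes tested, without passing the test.

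Genes of the inflammatory cytokine and chemokine list had a median of -0.046 with 0 DE genes. Of the 34 members tested, 6 were higher and 1 lower at an unadjusted p under 0.05, beside 1.67% and 0.996% of all genes. Higher by at least 1 in both numbers, as 0.363% of all genes were, were 5 members, the chemokine genes Ccl17, Ccl22, Ccl24, Ccl8 and Ccl12. Ccl8 was at 2.41 and 9.71 TPM in soft and 16.9 and 24.9 TPM in stiff. The matricellular cytokine gene Spp1 was at 2598 and 3000.3 TPM (soft) and 2305 and 2649.6 TPM (stiff). MHC class II genes stayed level, with a median of 0.046 over 14 members: H2-Aa was at 3418 and 5558 TPM in soft and 3452 and 5422 TPM in stiff, and the difference between numbers was larger than that between gels.

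Genes of the mechanical response had values near 0. The actin, adhesion and mechanosensing list had a median of 0.0016, with 23 of 46 members above 0 (45.0% of all genes). It held 0 DE genes and 1 with an unadjusted p under 0.05 in limma, Itgb3, against 0.0465% and 2.66% of all genes tested. The integrin gene Itgax (CD11c) was at 139 and 131 TPM in soft and 262 and 253 TPM in stiff, 1.91-fold, and in WT stiff it was at 171 and 627 TPM. The focal adhesion gene Zyx was at 106 and 97.3 TPM (soft) and 146 and 132 TPM (stiff), and the cytoskeletal genes Actb and Vim at 3039 and 3027 TPM (soft) against 3065 and 2911 TPM (stiff) and at 1725 and 1471 TPM (soft) against 1685 and 1425 TPM (stiff). Itgax and Zyx lay higher in both stiff libraries, Actb and Vim overlapped. Matrix genes and proteases had a median of -0.018 with 0 DE genes. The collagenase gene Mmp13 was at 9.92 and 8.83 TPM in soft and 18.5 and 13.4 TPM in stiff, and Mmp19 at 31.6 and 31.2 TPM (soft) and 46.0 and 46.6 TPM (stiff).

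Mitochondrial genes had values slightly above 0. Of the 51 oxidative phosphorylation genes, 49 were above 0, against 45.0% of all genes tested. The median was 0.14 (0.10 within number 1 and 0.18 within number 2). In limma, 4 were higher at an unadjusted p under 0.05, against 1.67% of all genes, and 0 were DE. Cox6c, a subunit of cytochrome c oxidase, was at 506 and 538 TPM in soft and 674 and 652 TPM in stiff, and the complex I gene Ndufa1 at 166 and 185 TPM (soft) and 216 and 238 TPM (stiff). In both the stiff libraries lay above the soft libraries, as in 13.2% of all genes tested. The unfolded protein and heat shock list had a median of 0.12, with 29 of 34 members above 0, against 45.0% of all genes. Glycolysis and hypoxia genes had a median of 0.075, and Gapdh was at 1443 and 1371 TPM (soft) and 1574 and 1452 TPM (stiff).

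Calcium and AMPK signaling genes, the pathway of Camkk2 itself, had a median of -0.044 over 33 members. In limma, 0 of them had an unadjusted p under 0.05, against 2.66% of all genes tested. Camkk2 had a log2 fold change of -0.24 ± 0.76, as both gels held a high library numbered 1 and a low library numbered 2. The medians of the remaining lists were 0.033 for sterol and fatty acid synthesis, -0.0027 for LXR and lipid handling, -0.041 for p53 targets, -0.035 for NRF2 targets, 0.038 for immediate early genes, 0.0052 for DNA replication and cell cycle, -0.10 for complement and scavenger receptors and -0.048 for genes that flank Camkk2, all with 0 DE genes. Fas, a death receptor gene of the p53 list, was at 30.0 and 30.7 TPM in soft and 11.3 and 25.6 TPM in stiff, where the low value came from KO stiff 1.

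**Figure D3:**
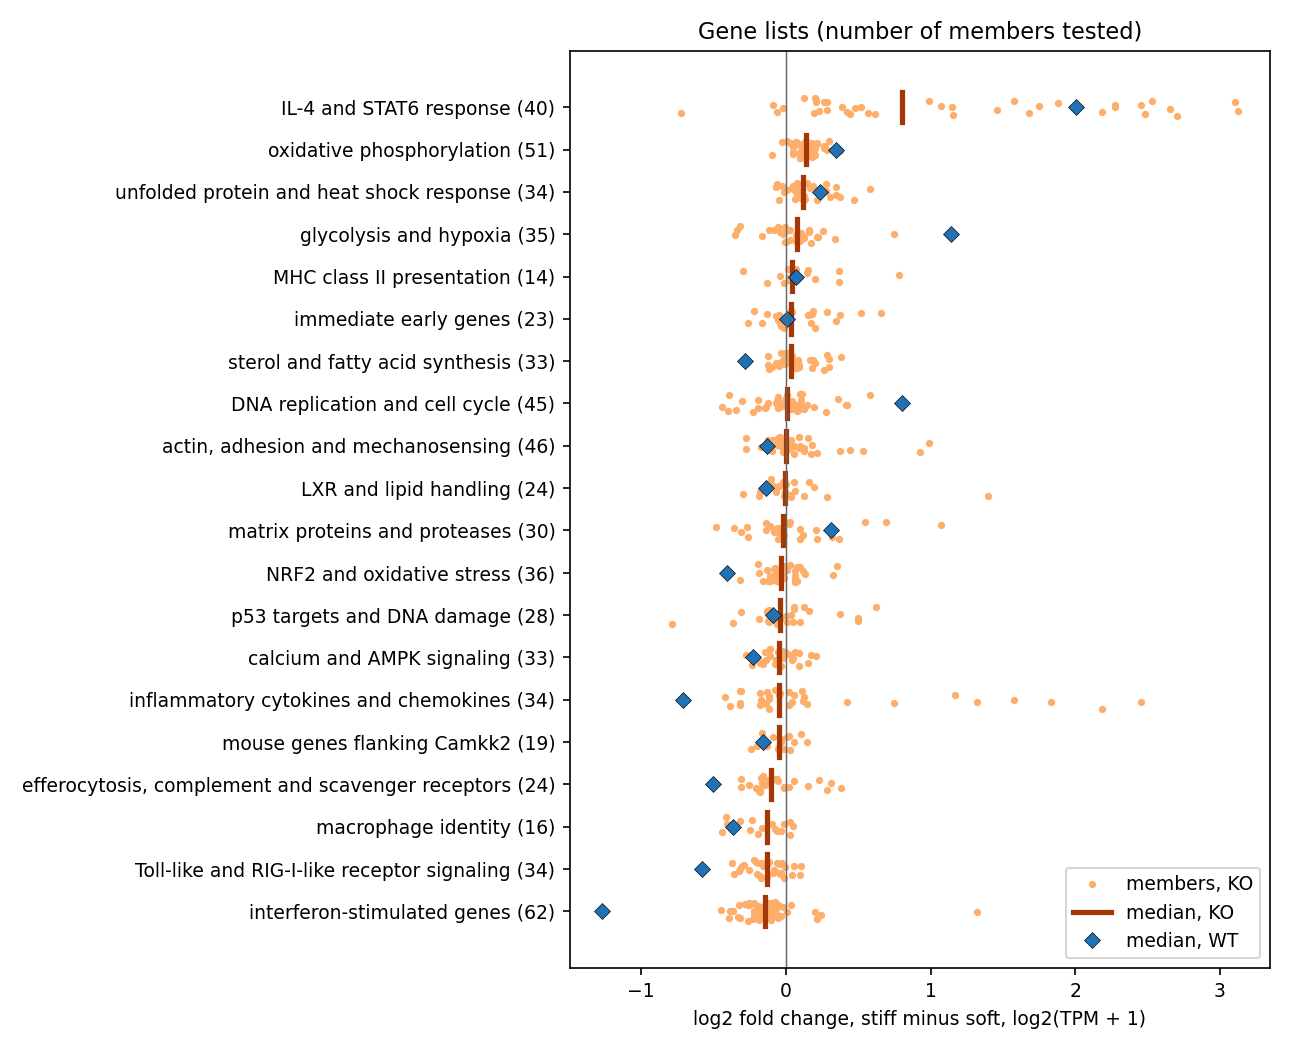
Log2 fold change of stiff minus soft on the log2(TPM + 1) scale (x axis) for the members of each gene list with at least 14 genes tested (dots, KO libraries), with the list median in KO (bar) and in WT (diamond) and the number of members in parentheses. The IL-4 list has the highest KO median, 0.80, and all other KO medians lie between -0.14 and 0.14.

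Since Camkk2 separated the libraries by number, stiff was also compared with soft within each number. The difference was at least 1 on the log2 scale, in either direction, in 267 genes between the libraries numbered 1 (177 higher, 90 lower) and in 72 genes between those numbered 2 (58 higher, 14 lower). Between numbers within a gel, 223 genes differed by as much in soft and 175 in stiff. The libraries numbered 2, in which Camkk2 was low and fewer genes were at 0, thus had fewer large differences between gels than the libraries of 1 gel had between numbers. The part of the share of genes at 0 in these counts was not tested.

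Higher by at least 1 in both numbers were 39 genes (0.363% of the genes tested), of which 18 are in the IL-4 list, and lower in both were 3 (0.0279%). Among the largest were Ear2, with differences of 3.21 and 3.04 in numbers 1 and 2, Arg1 with 3.84 and 2.36, Chil3 with 2.32 and 3.09, Retnla with 2.21 and 3.10 and Mgl2 with 2.23 and 2.73. Il4i1 differed by 2.07 and 2.48. Il4i1, Retnla and Mgl2 thus had the larger difference where Camkk2 was low, and Arg1 where it was high. In opposite directions by at least 1 were 12 genes (0.112%), 8 of them higher in number 1 and lower in number 2. These included Oaz1-ps (0 and 119 TPM in soft, 52.0 and 41.4 TPM in stiff), Hist2h3c2 (20.7 and 0 TPM and 0 and 11.7 TPM) and BC002163 (73.2 and 38.3 TPM and 153 and 0.386 TPM). Oaz1-ps and BC002163 are annotated as processed pseudogenes, and for both of them and the histone gene, reads can be split between copies. The correlation of the differences of the numbers across all 10743 genes was 0.20, where genes are not independent replicates.

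**Figure D4:**
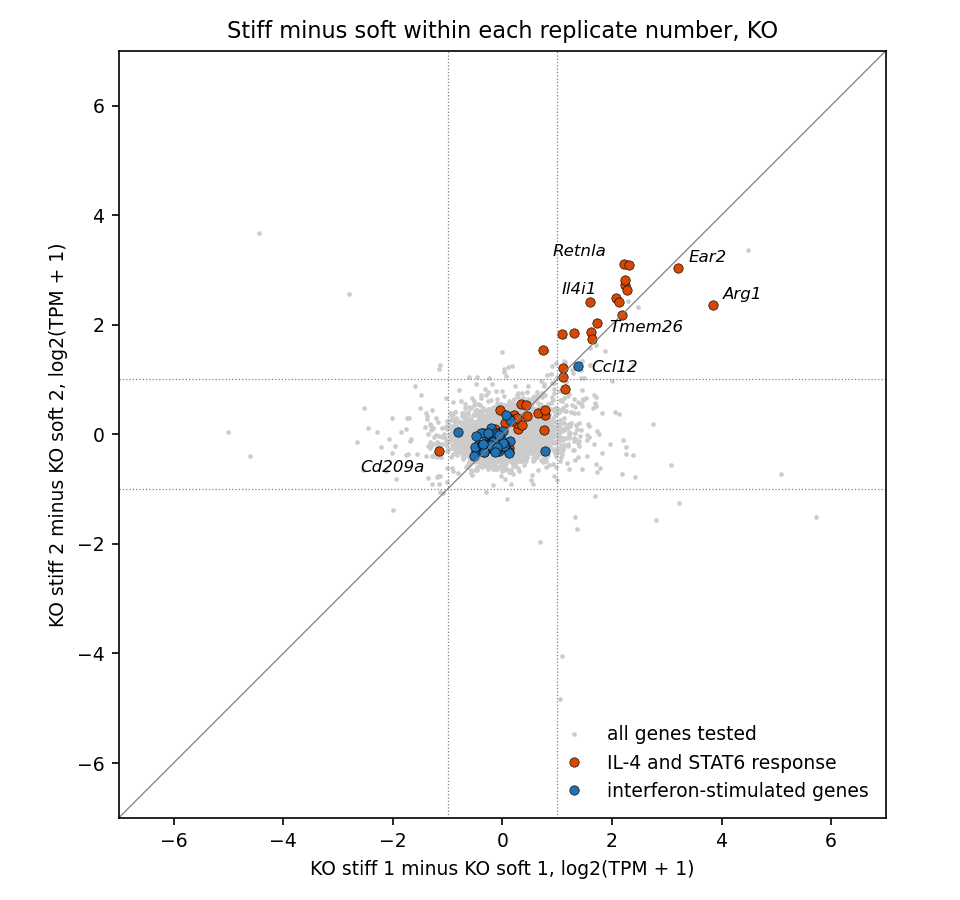
Difference of stiff minus soft on the log2(TPM + 1) scale between the KO libraries numbered 1 (x axis) and between those numbered 2 (y axis), for all genes tested in grey, the IL-4 list in orange and interferon-stimulated genes in blue, with dotted lines at 1 and -1 and the line of equal values. A group of IL-4 genes lies above 1 on both axes, while interferon-stimulated genes other than Ccl12 lie between -1 and 1 on both.

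The response of the WT libraries over the same genes was larger. There, 416 genes were DE (3.87%), 167 higher (1.55%) and 249 lower (2.32%). This count moved with single libraries: it was 457 without WT stiff 1, 1014 without WT stiff 2 and 267 without WT soft 2. Of the 167 genes higher in WT, 159 had a log2 fold change above 0 in KO (45.0% of all genes did) and 38 had one of at least 1. Their median was 1.52 in WT and 0.45 in KO (0.51 within number 1 and 0.46 within number 2). Of the 249 genes lower in WT, 238 were below 0 in KO (5906 of all 10743 genes were) and 0 reached -1, with medians of -1.45 in WT and -0.22 in KO. All 5 DE genes of the KO were also DE and higher in WT. The WT and KO contrasts compare no library in common, but both tests use 1 spread per gene, estimated from all 12 libraries. A gene with a small spread is favoured in both, so the calls in KO and WT are not independent. The WT genes were also chosen for their difference in WT, so the size of that difference is not independent of the choice.

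The interaction, the KO difference minus the WT difference, tested the genotypes against each other. It called 77 genes (0.717%), 59 (0.549%) with a higher value in KO and 18 (0.168%) with a lower value. All 59 were DE and lower in WT, and 17 of the 18 were DE and higher in WT. The interaction contains the WT difference, so this overlap is partly built in. Since KO soft 1 and KO stiff 1 had high Camkk2 and WT soft 2 low Camkk2, the direction is that of the labels. Il4i1 rose from 18.1 and 18.2 TPM in WT soft to 232 and 304 TPM in WT stiff, a log2 fold change of 3.80 against 2.27 in KO, and the interaction was -1.53 ± 0.19 (adjusted p 0.0100). Tmem26 rose from 3.25 and 2.43 to 71.4 and 49.4 TPM in WT, with an interaction of -2.10 ± 0.27 (adjusted p 0.0100). Tfrc and Irf4 had interactions of -1.45 ± 0.16 and -1.23 ± 0.18 (adjusted p 0.00984 and 0.0167). These 4 genes thus rose in both genotypes, and by less in KO. Ier3, an immediate early gene of cell survival, went from 35.7 and 39.6 to 56.3 and 63.7 TPM in KO and from 29.8 and 34.8 to 331 and 149 TPM in WT (interaction -2.09 ± 0.40, adjusted p 0.0488).

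Among genes that fell in WT, Fcgr1 went from 133 and 114 TPM in soft to 18.7 and 22.6 TPM in stiff, against 149.7 and 122 TPM (soft) and 113 and 92.1 TPM (stiff) in KO, an interaction of 2.12 ± 0.21 (adjusted p 0.00921). Ly6a, the surface protein Sca-1, went from 64.1 and 46.8 to 5.25 and 7.23 TPM in WT, and was at 60.6 and 55.5 TPM (soft) and 60.4 and 41.8 TPM (stiff) in KO (interaction 2.76 ± 0.32, adjusted p 0.00984). Ifit3b, an antiviral gene with the close copy Ifit3, was at 12.4 and 11.3 TPM (soft) and 0 and 1.14 TPM (stiff) in WT and at 11.6 and 9.38 TPM (soft) and 11.0 and 8.50 TPM (stiff) in KO (interaction 3.04 ± 0.46, adjusted p 0.0178). The membrane protein gene Ms4a4c, the adhesion receptor gene Adgre4 and the receptor gene Gpr162 had interactions of 2.70 ± 0.46, 2.64 ± 0.41 and 2.61 ± 0.38. In WT, both stiff libraries of these 6 genes were below both soft libraries. Over all genes tested, the WT groups did not overlap, in either direction, in 43%. In KO the gels overlapped for Ly6a, Ifit3b, Adgre4 and Gpr162, and the stiff libraries lay below the soft ones for Fcgr1 and Ms4a4c. Lyz2, the most abundant of the identity genes, went from 45849 and 48456 to 19076 and 20502 TPM in WT, with an interaction of 1.02 ± 0.20 (adjusted p 0.0488).

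The interaction also rested on single libraries. It called 4 genes without KO soft 1, 5 without KO stiff 2, 12 without WT soft 2, 19 without KO stiff 1, 32 without WT soft 1, 41 without KO soft 2, 154 without WT stiff 1 and 838 without WT stiff 2. Fcgr1 passed in each of these 8 fits. With KO stiff and KO soft reduced to the libraries numbered 1 or to those numbered 2, it called 0 genes, with 953 and 562 at an unadjusted p under 0.05. Over the lists, the median interaction was -1.20 for the IL-4 list and 1.04 for interferon-stimulated genes, beside -0.020 for all genes. Of the 40 IL-4 members tested, 5 passed as lower in KO, against 0.168% of all genes tested. Of the 62 interferon-stimulated genes tested, 2 passed as higher, against 0.549%.

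**Figure D5:**
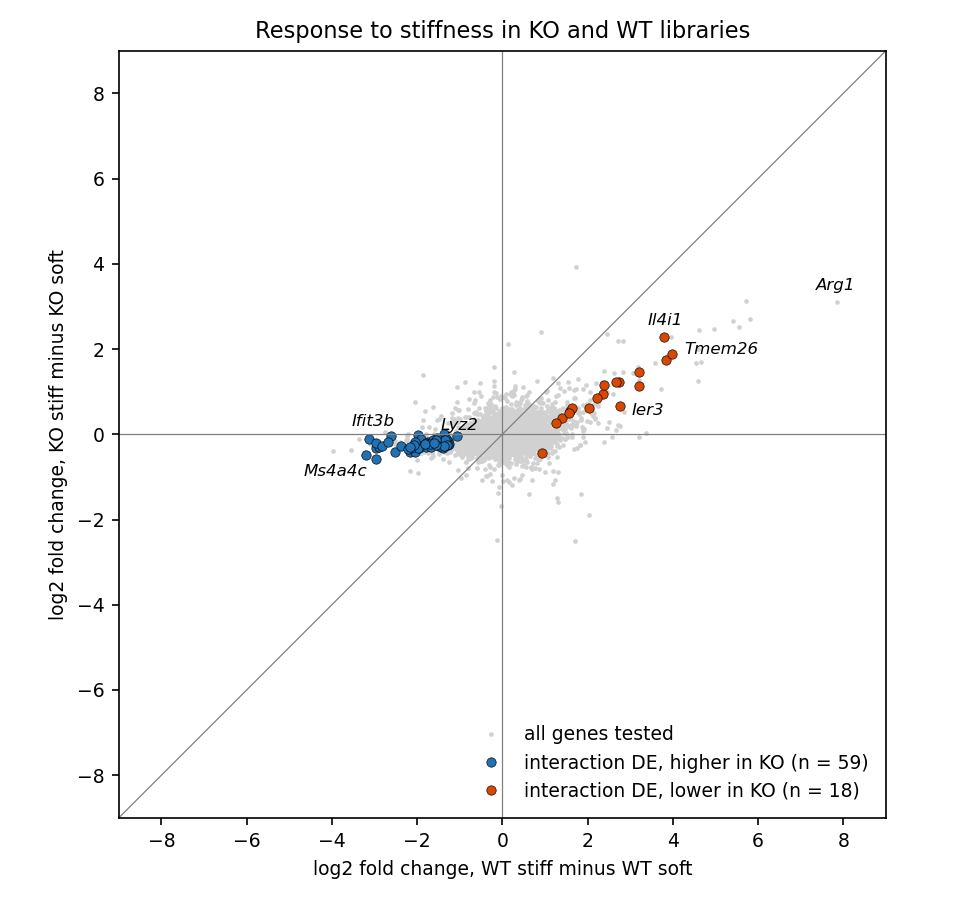
Log2 fold change of stiff minus soft in WT (x axis) and in KO (y axis) for all genes tested, with the 59 genes of a higher and the 18 of a lower interaction coloured, and the line of equal change. The 59 genes fell in WT and lie between 0 and -1 in KO, and 17 of the 18 rose in WT and lie above 0 but under the line in KO.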

How the data were processed

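Poly-A RNA of 12 libraries was sequenced by the authors with strand-specific libraries. They deposited 1 table of TPM values for 14098 genes, in which each column sums to 1000000. The submitters' processing notes name Trim Galore 0.6.7, Salmon 1.4.0 and the mouse genome mm10, whereas the methods of the study name other tools for counting, so the version of the counting step behind the values is uncertain. No read counts were used here, and depth and counting error are unknown. Values were taken as log2(TPM + 1), with a pseudocount of 1, and genes with at least 1 TPM in 2 of the 4 KO libraries compared were kept. The model (limma 3.58.1 in R 4.3.3, with an intensity trend) had 1 mean for each of 6 groups of 2, with the spread shared by all 12 libraries, and moderated tests were adjusted by Benjamini-Hochberg over all 10743 genes. Genes past an adjusted p of 0.05 and an absolute log2 fold change of 1 were called. An exact permutation test of 2 against 2 libraries cannot go below p = 0.333. Alternatives covered the pseudocount (0.1), the filter, median-of-ratios scaling, the libraries in the model, the thresholds, leaving out each library, a block for the replicate number and each number alone. Named genes were first those of largest difference by fixed rules, with means of at least 5 TPM. The rules took 10 a direction past the test or, failing that, of smallest p. They took 8 a direction by the smaller within-number difference, 5 by each opposite pattern and 5 a direction by interaction. Named as well were the genes the study names, and from each list the 4 members of largest change and those at 1000 TPM or more. Genes named outside these rules were picked with their values in view. These are Amd2, Apol7c, Chil4, Cish, Emilin2, F13a1, Gpc1, Hebp2, Hist1h2bg, Ifi202b, Il4ra, Klf4, Lipn, Myc, Pparg, Ppargc1b, Rn4.5s, Stat6 and Tgm2. The members, lists and tests were chosen with earlier results of these data known. The script was tested on simulated data.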

Additional observations from a re-analysis of the deposited data

Results flagged for a closer look

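The difference between stiff and soft was itself different between KO and WT in 17 of the named genes, by the interaction in limma (KO difference minus WT difference, log2 scale, 10743 genes tested). Some genes were named because they passed this same interaction, so the count of 17 is partly set by that choice. Over all genes tested, 77 (0.717%) were called. The interaction was 3.04 for Ifit3b, 2.76 for Ly6a, 2.70 for Ms4a4c, 2.64 for Adgre4, 2.61 for Gpr162, 2.12 for Fcgr1, 1.48 for C5ar1 and 1.02 for Lyz2. These 8 genes fell in WT and had smaller differences in KO. The adjusted p was 0.0178 for Ifit3b, 0.00984 for Ly6a, 0.0292 for Ms4a4c, 0.0216 for Adgre4, 0.0167 for Gpr162, 0.00921 for Fcgr1, 0.0100 for C5ar1 and 0.0488 for Lyz2.

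The interaction was -2.10 for Tmem26, -2.09 for Ier3, -2.09 for Pdcd1lg2, -2.08 for Plekhf1, -1.75 for Flt1, -1.53 for Il4i1, -1.51 for Ptgs1, -1.45 for Tfrc and -1.23 for Irf4. These 9 genes had a smaller rise or difference in KO than in WT. The adjusted p was 0.0100 for Tmem26, 0.0488 for Ier3, 0.0261 for Pdcd1lg2, 0.0294 for Plekhf1, 0.0241 for Flt1, 0.0100 for Il4i1, 0.0221 for Ptgs1, 0.00984 for Tfrc and 0.0167 for Irf4. When each of the 8 libraries was left out in turn, 0 of the 17 genes changed sign, and Fcgr1 passed in 8 of 8 fits, Ly6a and Tfrc in 7, C5ar1 and Gpr162 in 5, Il4i1 and Tmem26 in 4, Flt1, Irf4 and Plekhf1 in 3, Adgre4, Ier3, Ifit3b, Ms4a4c, Pdcd1lg2 and Ptgs1 in 2, and Lyz2 in 1. With only the 8 libraries compared in the limma model, 0 genes passed, and 830 had an unadjusted p under 0.05. WT stiff 1 stood apart from the other libraries, WT stiff 2 lay closest to a WT soft+IL-4 library, and KO soft 1, KO stiff 1 and WT soft 2 had Camkk2 levels against their labels. Their part in these values was not tested.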

How the results depend on the processing

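With each of the 4 KO libraries left out in turn, the 5 DE genes of stiff against soft became 1 to 2, the higher ones 1 to 2 and the lower ones 0 to 1. Median-of-ratios scaling gave 9 genes, all higher, only the 4 KO libraries 2 higher, an adjusted p under 0.1 10 higher, and a minimum log2 size of 2 gave 1 higher. The KO libraries numbered 1 alone gave 1 lower and 0 higher (445 genes at an unadjusted p under 0.05), and those numbered 2 alone 1 higher. A model with WT stiff 1 left out, chosen after seeing the data, gave 26 higher. A block for the replicate number gave 42 genes, 40 higher and 2 lower, with the 4 KO libraries and 7 with all 12. Only 2 pairs share a number, whose meaning the labels do not give. The difference between numbers 1 and 2 correlated across genes at 0.34 between KO soft and KO stiff. Its correlation with that of WT soft was similar, 0.355 for KO soft and 0.323 for KO stiff. With WT stiff the values were -0.038 and 0.0065, and with the IL-4 groups they lay between 0.034 and 0.13. These data do not settle whether the number pairs the libraries. With the block and all 12 libraries, Socs1, Pdcd1lg2 and Mgl2 passed in addition and Hebp2 did not. With the block and the 4 KO libraries, those that passed included Retnla, Chil3, Ear2, Rnase2a, Arg1, Ccl17, Ccl22, Ccl24 and Cish.

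The 416 genes of WT became 267 to 1014 with 1 library left out, 21 with only the 4 WT libraries, 105 with those and the block for the replicate number, 102 at a log2 fold change of at least 2 and 1161 with no minimum. The 77 genes of the interaction became 4 to 838 with 1 library left out, 0 with only the 8 libraries compared (830 at an unadjusted p under 0.05 in limma), 18 with those and the replicate block, 116 at an adjusted p under 0.1, 15 at a log2 fold change of at least 2, 0 with either number of the KO alone and, in an alternative chosen after seeing the data, 175 with only the libraries numbered 2 of the 4 groups. The cause was not tested for any of these. For the 170 named genes, 2149 of 2210 values under an alternative kept their side of the threshold, 31 passed newly and 30 no longer passed. Among the 2210, 113 differed in sign from the reported value, all for genes that had not passed. Scaling moved the median log2 fold change of all genes from -0.016 to 0.0004. Since TPM holds no counts, precision could be judged only from 2 libraries a group, with a 95% interval that reached to 0.38 on either side (median over genes).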

Other observations

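The 39 genes with higher values by at least 1 in both numbers were placed on the range from KO soft to KO soft+IL-4. The mean of KO stiff lay between the means of both in 34 of them and outside in 5 (Apoc1, Hist1h2bg, Rn4.5s and 2 unnamed gene models). The genes were chosen for KO stiff above KO soft, so only the place relative to IL-4 was not set by that choice. In the 34, KO stiff lay at 16.6% to 65.2% of the TPM range, with a median of 24.4%. Il4i1 lay at 20.7%, Retnla at 21.2%, Mgl2 at 24.5%, Ear2 at 41.2% and Ccl12 at 65.2%. Within the libraries numbered 1, Il4i1 lay at 18.3%, and within those numbered 2 at 23.1%. These values share the KO soft libraries and were not tested. Of the 39 genes, 4 were under 1 TPM in both KO soft libraries. These 4 entered the test only through the stiff libraries and are among the 34.

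Of the 39 genes, 18 stand in no list. The examples here were chosen after their values were seen, among genes above 5 TPM in all 4 libraries. Gpc1, a cell surface proteoglycan gene, was at 32.4 and 26.9 TPM in the soft and 66.0 and 56.8 TPM in the stiff matrix. The lipase family gene Lipn was at 6.81 and 5.87 TPM (soft) and 22.7 and 15.6 TPM (stiff), and Apol7c, of the apolipoprotein L family, at 5.97 and 5.55 TPM (soft) and 14.2 and 21.4 TPM (stiff). In each of these the stiff libraries lay above the soft libraries, as in 13.2% of all genes tested. In limma, 0 of the 3 passed the adjusted threshold, with adjusted p of 1, 0.849 and 0.157 and unadjusted p of 0.0605, 0.00253 and 0.000240.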
